A study of Mus musculus with 2 samples.

Results

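The 10 genes of the YAP/TEAD mechanoresponse described here were followed in cultured mouse aortic vascular smooth muscle cells (VSMCs): the coactivators Yap1 and Wwtr1 (which encodes TAZ), their DNA-binding partner Tead1, the regulators Lats2, Ajuba and Amotl2, and the target genes Ccn1, Ccn2, Ankrd1 and Axl. The genes were chosen by symbol as known members of the pathway, and all 10 were among the 32285 genes of the count table. The cells were primary aortic VSMCs of C57BL/6 mice, bought as isolated cells and grown on 6-well plates, from animals aged 12 weeks (young) or 58 to 78 weeks (old). Besides plain young and plain old cells there were young cells given 100 nM Angiotensin II (AngII), a vasoconstrictor peptide hormone, for 48 h, and old cells transfected with 20 nM siRNA against Piezo1, a stretch-gated calcium channel. The sources used here do not say whether the plain old cells of this library received the non-targeting siRNA.

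The 4 groups were marked with hashtag antibodies, mixed and run as 1 droplet single-cell library, so each group was 1 culture with no replicate told apart. The tags were read as tag 1 young, tag 2 old, tag 3 young + AngII and tag 4 old + siPiezo1 by the numbers in the study's schematic, where nothing says that these are numbers of tags. Because Piezo1 itself did not separate tag 4 from tag 2 (a ratio of 0.969, interval 0.874 to 1.07), the cells of tag 4 are called cells labelled siPiezo1. No test between groups was possible, and every interval given is a 95% interval of counting error only.

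YAP and TAZ shuttle between cytoplasm and nucleus. On stiff or stretched substrates, with high actin tension, they enter the nucleus, bind TEAD proteins and switch on genes that act on matrix and shape. The Hippo kinases LATS1 and LATS2 phosphorylate YAP and TAZ and keep them in the cytoplasm, and the angiomotin AMOTL2 also holds them there, whereas the LIM protein AJUBA binds and restrains LATS. Lats2 and Amotl2 are themselves YAP/TEAD targets, which closes a feedback loop. Most control of YAP and TAZ is on the protein, so that messenger levels of the coactivators and of their targets need not move together.

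TEAD proteins recognise a short core, GGAATG, which reads CATTCC on the other strand. RefSeq promoter windows (GRCm38.p6, the 250 bases before the start) were found for 8 of the 10 genes, as 10 windows in all, since Wwtr1 and Lats2 had 2 starts each; none was used here for Tead1 and Ccn2. The core was in 8 of the 10 windows, on either strand, against 12.6% of all 32851 windows of the same length. The 2 windows of Wwtr1 overlap and hold the same core, which was counted in both. It was in the windows of Yap1, Wwtr1, Ajuba, Amotl2, Ccn1, Ankrd1 and Axl, and was not in the windows of Lats2. The AP-1 motif TGANTCA was in 0 of the 10 windows against 6.75% of all windows, and the CArG box, the serum response factor motif of contractile genes, was in 0 against 1.47%. A match is a description of the letters and not evidence that TEAD1 binds there in these cells. The 9 cores are shown with the bases on each side, 5′ to 3′ on the strand of the gene with the core in capitals, because they are the sequence that the promoters of coactivators and targets had in common.
Yap1, core 141 bases before the start, chr9:8004720-8004749, minus strand: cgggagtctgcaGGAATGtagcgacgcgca
Wwtr1, 136 bases before the start, chr3:57576029-57576058, minus strand: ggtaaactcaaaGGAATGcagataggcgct
Ajuba, 186 bases before the start, chr14:54577830-54577859, minus strand: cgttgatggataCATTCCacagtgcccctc
Ajuba, 164 bases before the start, chr14:54577808-54577837, minus strand: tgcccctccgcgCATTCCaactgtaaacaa
Amotl2, 65 bases before the start, chr9:102717727-102717756, plus strand: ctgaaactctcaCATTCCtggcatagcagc
Ccn1, 103 bases before the start, chr3:145650071-145650100, minus strand: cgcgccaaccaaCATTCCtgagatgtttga
Ankrd1, 210 bases before the start, chr19:36120037-36120066, minus strand: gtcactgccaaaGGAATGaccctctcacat
Ankrd1, 123 bases before the start, chr19:36119950-36119979, minus strand: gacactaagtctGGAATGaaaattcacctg
Axl, 233 bases before the start, chr7:25788949-25788978, minus strand: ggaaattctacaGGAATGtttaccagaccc

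In GENCODE vM21 the windows of Ccn1, Ajuba and Axl and the first window of Wwtr1 held no exon, whereas 250 bases of the Ankrd1 window and 136 of the Amotl2 window were exon of another transcript of the same gene. The whole Ccn1 window (chr3:145649986-145650235, minus strand) is shown because Ccn1 is the textbook YAP target with the plainest layout, a single core 103 bases before the start and no exon: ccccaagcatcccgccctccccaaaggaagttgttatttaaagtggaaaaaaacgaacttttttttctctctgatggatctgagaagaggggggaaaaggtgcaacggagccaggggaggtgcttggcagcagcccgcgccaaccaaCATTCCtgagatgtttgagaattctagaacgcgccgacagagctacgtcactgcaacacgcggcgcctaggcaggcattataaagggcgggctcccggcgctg

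The library held 13045 cells, whose depth is given in UMIs (unique molecular identifiers, each standing for 1 captured messenger molecule). Tags 1 to 4 held 3144, 497, 1500 and 1529 cells with 24120561, 5577355, 14933669 and 16106402 UMIs, and 5307 cells (40.7%) carried no tag. Median depth per cell was 6817, 10663, 9454 and 9792 UMIs, so shares of cells are given after cells were thinned to 5000 UMIs. Cells with fewer than 5000 UMIs were left out of those shares, 747, 21, 136 and 114 cells of tags 1 to 4. The cells of the tags also came from donors of different sex, since a Y-linked transcript without any Xist was found in 54.1%, 19.5%, 55.5% and 13.8% of cells; age, donor sex and culture cannot be told apart. The mouse VSMC markers were present (9 of 9 above 0 in every tag) at summed levels of 2942, 3595, 3518 and 1985 CPM (UMIs of a gene per 1000000 gene UMIs of the tag) in tags 1 to 4. Of these sums Cald1 alone gave 1627, 1466, 2030 and 967 CPM, while Myh11 stood at 5.27, 7.89, 1.94 and 3.60 CPM. The 8 markers of dividing cells summed to 838, 812, 547 and 906 CPM and the 5 fibroblast markers, which cultured VSMCs also express, to 1395, 813, 1171 and 1092 CPM. Endothelial, macrophage and epithelial markers summed to 3.75 to 12.0 CPM per list and tag, and all of them were above 0 in tags 1 and 3 as well.

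Between the 4 cultures the coactivators differed by little, Wwtr1 by more than Yap1. Yap1, on chromosome 9 (7931999 to 8004596, minus strand, GRCm38), stood at 49.0 CPM in the young cells of tag 1, 51.6 in the old cells of tag 2, 51.9 in young + AngII cells of tag 3 and 53.5 in cells labelled siPiezo1 of tag 4. The highest was 1.09 times the lowest, and no step in that order was beyond counting error. Wwtr1 (chromosome 3, 57455649 to 57575910, minus strand) stood at 94.8, 118, 101 and 112 CPM in tags 1 to 4. Both old cultures were above both young ones for Wwtr1, and tags 2 and 4 were not told apart (ratio 1.06, interval 0.968 to 1.16). Tead1, the factor that carries YAP and TAZ to DNA (chromosome 7, 112679318 to 112906807, plus strand), stood at 314, 358, 382 and 350 CPM, lowest in young cells and highest with AngII, 1.22-fold apart.

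Among the regulators, the kinase gene Lats2 spanned 1.12-fold, and the scaffold gene Amotl2 split between the young and the old cultures. Lats2 (chromosome 14, 57689662 to 57758388, minus strand) had 83.4, 89.8, 93.4 and 90.9 CPM in tags 1 to 4, with no neighbours in the order beyond counting error, although the highest (tag 3) and the lowest (tag 1) were. Amotl2 (chromosome 9, 102716672 to 102733418, plus strand) had 135 CPM in tag 1 and 135 in tag 3, but 88.6 in tag 2 and 83.1 in tag 4. The 2 young cultures did not differ (interval of the ratio 0.946 to 1.06), nor did the old ones (1.07, 0.959 to 1.18). The step between the young and the old cultures was 1.52-fold (1.38 to 1.68). Ajuba (chromosome 14, 54567472 to 54577558, minus strand) was near the floor of 10 CPM used for counts over genes, with 10.7, 11.7, 16.1 and 11.2 CPM from 258, 65, 240 and 181 UMIs, so that only the level with AngII stood apart.

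The targets did not move as a block. Ccn2, which encodes the secreted matricellular protein CTGF (chromosome 10, 24595442 to 24598683, plus strand), had the widest span of the 10 genes: 365 CPM in tag 3 with AngII, 163 in tag 1, 73.7 in tag 2 and 45.7 in tag 4, 7.99-fold from highest to lowest. Ankrd1, a stress-induced ankyrin repeat protein of muscle (chromosome 19, 36111961 to 36120099, minus strand), followed the same order with 278, 135, 109 and 50.9 CPM, a span of 5.46-fold. For both genes every step in the order was beyond counting error, which leaves out the uneven sharing among cells given below. The Ankrd1 step between tags 1 and 2 reversed, to 1.11 in tag 2 over tag 1, when a tag had to exceed the next tag 3 times. Ccn1, which encodes the matricellular protein CYR61 and is the closest relative of Ccn2 among these genes (chromosome 3, 145646976 to 145649981, minus strand), had 321 CPM with AngII but 219, 234 and 225 in tags 1, 2 and 4. Those 3 levels lay within 1.04-fold of each neighbour, with intervals that held 1. The highest of them (tag 2) was 1.07 times the lowest (tag 1), with an interval of 1.006 to 1.14. Axl, a receptor tyrosine kinase for GAS6 (chromosome 7, 25757273 to 25788705, minus strand), split between the cultures like Amotl2. It had 222 and 217 CPM in the young cultures of tags 1 and 3 and 147 and 138 in the old ones of tags 2 and 4.

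**Figure D1:**
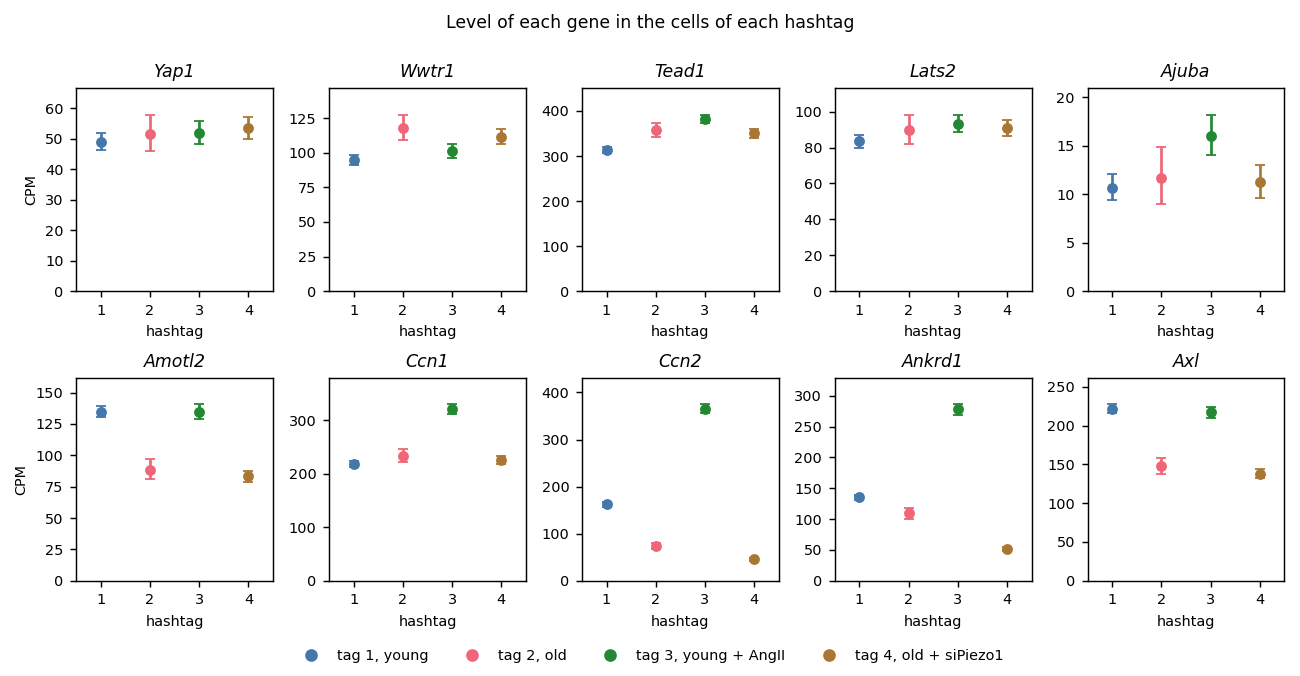
Level of each of the 10 genes in CPM (vertical axes, each from 0) in the cells of hashtags 1 to 4; points are UMIs summed over the cells of a tag and bars are exact Poisson 95% intervals of counting error, with 1 culture per tag. Yap1 spans 1.09-fold and Lats2 1.12-fold across the tags, Amotl2 and Axl are lower in tags 2 and 4, and Ccn2 and Ankrd1 are highest in tag 3 and lowest in tag 4.

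Old and young cells (tag 2 over tag 1) differed in donor sex and culture as well as in age, which cannot be told apart. Of the 10 genes, 3 were at 1/1.5-fold or less in this comparison and 0 were at 1.5-fold or more. Over all 8462 genes of at least 10 CPM, 9.83% were at 1/1.5-fold or less and 8.34% at 1.5-fold or more. The 3 were Ccn2 at 0.453 (interval 0.408 to 0.502; 0.195 to 0.537 over 17 other ways of processing), Amotl2 at 0.657 (0.597 to 0.723) and Axl at 0.665 (0.617 to 0.716). Axl sat on the limit and was past it under 11 of 17 other ways of processing, some of which left the ratio unchanged, as set out below. Ankrd1 was at 0.808 (0.740 to 0.881), but at 1.11 when a tag had to exceed the next tag 3 times. The coactivators and Tead1 lay on the other side of 1, Yap1 at 1.05, Wwtr1 at 1.25 (1.14 to 1.36) and Tead1 at 1.14 (1.09 to 1.20), and the median log2 ratio of the 10 genes was 0.09 against 0.03 over all genes tested. The sign of that median was not stable, since it was -0.04 with tags called by HTODemux at its 0.95 quantile, -0.07 in thinned cells and -0.07 in only the cells with a Y-linked transcript and no Xist. Marker lists moved with this comparison. Of the 8 VSMC markers measured, 5 were at 1.5-fold or more, and of the 4 fibroblast markers measured, 3 were at 1/1.5-fold or less; their part in the ratios was not tested.

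In AngII-treated against untreated young cells (tag 3 over tag 1), the model of premature ageing, 3 of the 10 genes were at 1.5-fold or more and 0 at 1/1.5-fold or less, against 6.9% and 7.59% of all genes tested. Ccn2 was at 2.25 (interval 2.15 to 2.34) and Ankrd1 at 2.06 (1.96 to 2.15). Both stayed past 1.5-fold under all 17 other ways of processing, though some of these left the ratios of this comparison unchanged, as set out below. Ajuba was at 1.502 (1.26 to 1.80), on the limit, and was past it in 8 of 16. Ccn1 was just inside it at 1.47 (1.41 to 1.53) and was past it in 5 of 17. Tead1 at 1.22 (1.18 to 1.26) and Lats2 at 1.12 (1.05 to 1.20) were higher by less, and the intervals of Yap1, Amotl2 and Axl held 1. The median log2 ratio of the 10 genes was 0.22 against 0.04 over all genes tested. Piezo1 was at 1.51 (1.41 to 1.62) in the same comparison. The median share of mitochondrial UMIs per cell was 0.224% in tag 3 and 1.08% in tag 1. Of the 8 markers of dividing cells 4 were at 1/1.5-fold or less, as were 2 of the 4 fibroblast markers, and of the 8 VSMC markers 1 was past the limit on each side. The part of these in the ratios was not tested.

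In cells labelled siPiezo1 against old cells (tag 4 over tag 2), which asks what the knockdown does, 2 of the 10 genes were at 1/1.5-fold or less and 0 at 1.5-fold or more, in a comparison where 0.945% and 1.77% of all genes tested were. Ankrd1 was at 0.466 (interval 0.419 to 0.519) and Ccn2 at 0.620 (0.549 to 0.701). Both sizes moved with the processing. Ankrd1 was at 0.302 when a tag had to exceed the next tag 3 times, at 0.201 after free RNA (messages of broken cells that enter every droplet) was subtracted at a share of 25.9%, and at 0.768 in only the cells with a Y-linked transcript and no Xist. Ccn2 was listed at 0 in tag 4 after the same subtraction and otherwise ran from 0.478 to 0.673. That share was more than the Ankrd1 level of some tag 4 cells allows, as given below. The other 8 genes lay between 0.938 (Axl) and 1.04 (Yap1), and the interval of each held 1. Ccn1 was among them at 0.962 (0.903 to 1.03), so the textbook YAP targets parted in this comparison. The median log2 ratio was -0.07 against 0.02 over all genes tested. Of the 8 VSMC markers measured, 6 were at 1/1.5-fold or less as well, such as smooth muscle actin Acta2 at 0.31 (568 CPM in tag 2, 174 in tag 4) and Cnn1 at 0.29, and 2 of the 4 fibroblast markers were at 1.5-fold or more; their part in the ratios of Ankrd1 and Ccn2 was not tested. The knockdown itself was not seen in Piezo1, and this comparison shares the cells of tag 2 with that of old against young, as that one shares tag 1 with the AngII comparison.

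**Figure D2:**
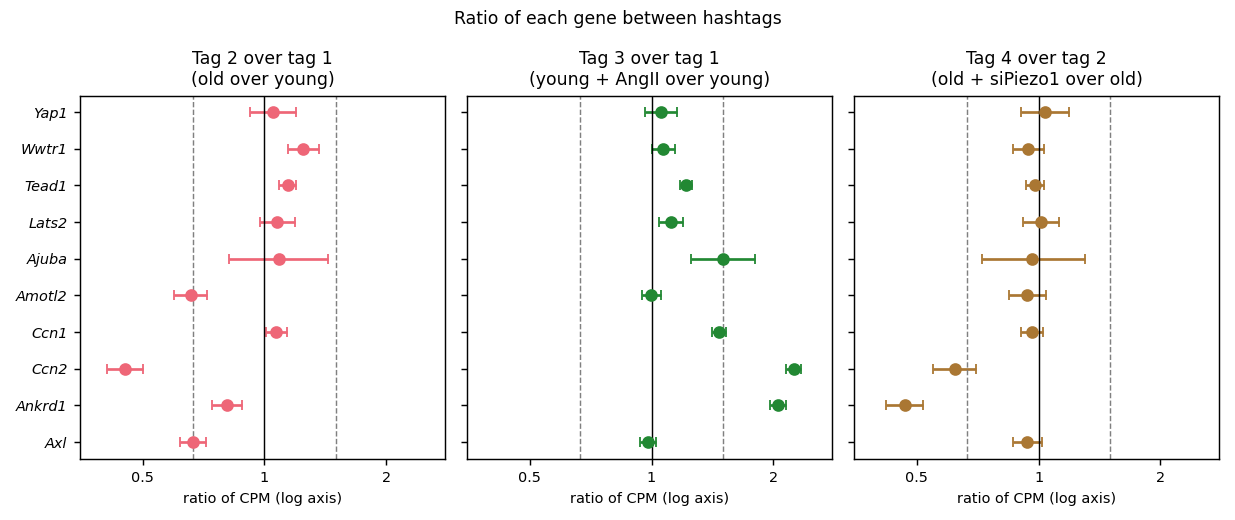
Ratio of CPM (log axis) of the 10 genes for tag 2 over tag 1, tag 3 over tag 1 and tag 4 over tag 2, with 95% intervals of counting error; the solid line marks 1 and the dashed lines mark 1.5-fold either way. Ccn2 lies past a dashed line in all 3 panels, Ankrd1 in the middle and right panels, and Yap1, Wwtr1, Tead1 and Lats2 in none.

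Other Hippo genes past 1.5-fold numbered 1 or 2 of 20 in each comparison. Of 21 other Hippo genes, 20 reached 10 CPM, and in tag 2 over tag 1 the kinase gene Stk3 (MST2) was at 1.54 (interval 1.37 to 1.72) and the TEAD family gene Tead2 at 1.73 (1.503 to 1.999), 2 of 20 against 8.34% of all genes, with none at 1/1.5-fold or less and a median log2 ratio of 0.07. With AngII, Amot, the founding angiomotin gene, was at 1.87 (1.70 to 2.05) and Tead4 at 1.5003 (1.24 to 1.82), 2 of 20 against 6.9% of all genes, and the median was 0.32. In tag 4 over tag 2 only Tead4 was past 1.5-fold, at 0.65 (0.48 to 0.88), from 12.2 to 7.89 CPM, 1 of 20 against 0.945% of all genes, and the median was 0.01.

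Of 16 further genes of a conserved YAP/TAZ target signature, 11 reached 10 CPM, and they went both ways. In old over young cells 2 were at 1.5-fold or more and 3 at 1/1.5-fold or less, against 8.34% and 9.83% of all genes. Dock5, a Rac activator, was at 1.91, whereas the tissue factor gene F3 was at 0.52 (165 to 86.4 CPM), the secreted matrix gene Ccdc80 at 0.33 and the IGF-binding protein gene Igfbp3 at 0.16 (63.7 to 10.0 CPM). With AngII, Dock5 was at 2.07 and the stress gene Gadd45a at 0.55, 1 of 11 each way against 6.9% and 7.59%. In cells labelled siPiezo1 over old cells, F3 was at 0.61 (0.54 to 0.68) and no other of the 11 was past 1.5-fold, where 0.945% of all genes were at 1/1.5-fold or less. The medians of the 11 log2 ratios were -0.17, -0.09 and 0.02 in the 3 comparisons, against 0.03, 0.04 and 0.02 over all genes.

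The share of cells with a Ccn2 or Ankrd1 transcript followed the order of the levels. After thinning to 5000 UMIs, Ccn2 was seen in 46.2%, 21.6%, 72.5% and 15.0% of the thinned cells of tags 1 to 4. Ankrd1 was seen in 28.8%, 17.2%, 43.0% and 9.61%. Counts of 5 or more Ccn2 UMIs were found in 1.88% of the thinned cells of tag 1, 0.84% of tag 2 and 10.7% of tag 3, and in 0 of the 1415 thinned cells of tag 4, which allows a share of up to 0.212%. Ccn1 was spread more evenly, in 60.6%, 63.7%, 72.2% and 60.0% of cells, and Yap1 in 22.2%, 22.7%, 22.3% and 23.4%.

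By variance over mean, Ankrd1 was the most unevenly shared of the 10 genes. Its variance over cells was 3.71, 5.78, 5.71 and 4.52 times its mean in tags 1 to 4, where independent draws at 1 rate give a ratio near 1, and the ratio for Yap1 was 1.01 to 1.06. In tag 2 the share of cells with 5 or more Ankrd1 UMIs (3.57%) was above that of tag 1 (2.63%) although fewer cells had any, and the largest count in a single cell was 32, in tag 3. Ccn2 had a ratio of 1.70 to 2.15, Ccn1 and Tead1 of 1.27 to 1.55, and Axl of 1.05 to 1.13.

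**Figure D3:**
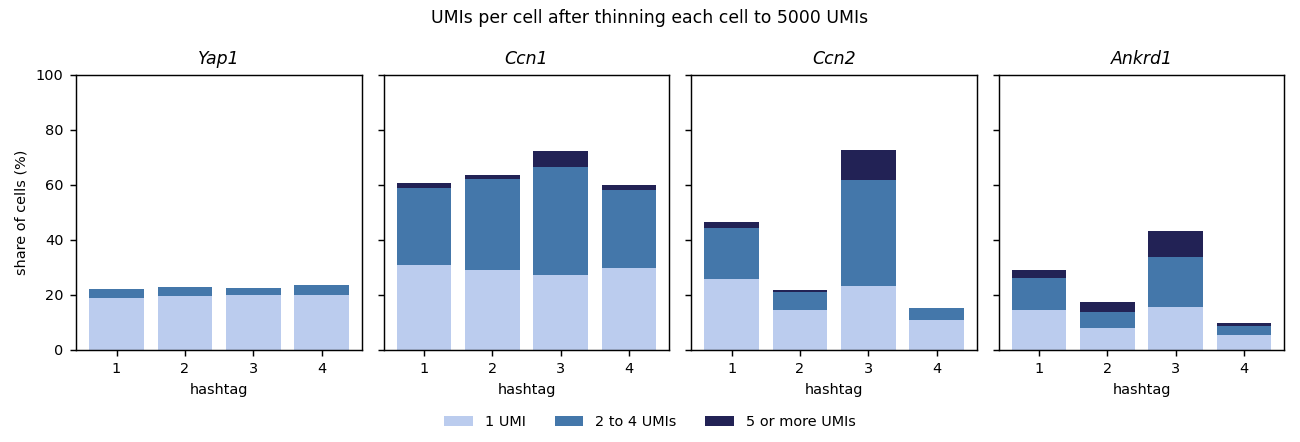
Share of cells (%) with 1, 2 to 4 or 5 or more UMIs of Yap1, Ccn1, Ccn2 and Ankrd1 in each hashtag, after thinning to 5000 UMIs. Cells with fewer than 5000 UMIs are left out, and the bar height is the share with any UMI. Yap1 bars are level at 22.2% to 23.4%, while Ccn2 runs from 15.0% in tag 4 to 72.5% in tag 3 and Ankrd1 from 9.61% to 43.0%, with a deep top band in tag 3.

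Cells were also clustered without the 10 genes, which gave 13 clusters that mostly followed the tags. Levels of a whole cluster count all its cells whatever their tag. Those without a tag were 1562 of 2427 cells in cluster 0, 662 of 1841 in cluster 3 and 120 of 436 in cluster 9. Cluster 3 (led by Lce1g, Serpinb2 and Zfp804a) held 56.3% of the AngII-treated cells, cluster 1 (led by the interferon-induced genes Ifit3, Ifit3b and F830016B08Rik) held 60.5% of young cells, and cluster 0 (led by Nxph1, Clu and Csf3) held 41.2% of old cells and 34.2% of cells labelled siPiezo1. Ccn2 was at 385 CPM in cluster 3, 384 in cluster 6 (led by Ccne2, Slfn9 and Ccne1, genes of entry into replication among them) and 176 in cluster 1, but at 28.9 in cluster 0 and 27.4 in cluster 9. It stood among the 10 leading genes of cluster 3 although it had been left out of the clustering. Ankrd1 was at 275 and 235 CPM in clusters 3 and 6, at 212 in cluster 5 and at 21.2 and 8.21 in clusters 0 and 9. Cluster 5 was VSMC-like, with 5 of the 9 VSMC markers among its top 10 genes and Cnn1, Gabrb1 and Lmod1 in the lead. Ccn1 did not share this split, at 233 CPM in cluster 0, 292 in cluster 9 and 329 in cluster 3.

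Cluster 9 (led by Lmo7, Klra4 and Platr16) was made almost wholly of cells labelled siPiezo1 among tagged cells and held 18.6% of tag 4 and 0.805% of tag 2. Ankrd1 was found in 13 of its 409 thinned cells (3.18%, interval 1.70 to 5.37), against 6.10% in cluster 0 and 41.2% in cluster 3, at median depths before thinning of 8232, 8093 and 9192 UMIs. A free RNA share of 5.65%, estimated from the Xist seen in cells that carry Y-linked messages, would by itself give 7.93 CPM of Ankrd1 and 11.4 of Ccn2, near the Ankrd1 level of cluster 9 and below its Ccn2 level. That share came from cells of tags 1 and 3 that were not called doublets. With called doublets kept it was the 25.9% used above, which would give 36.3 CPM of Ankrd1 and 52.05 of Ccn2. Cluster 9 had 8.21 CPM of Ankrd1 and 27.4 of Ccn2, less than that share alone would give. A share that large therefore cannot hold for its cells. With cluster 9 left out, the ratio of tag 4 over tag 2 was 0.533 for Ankrd1 and 0.673 for Ccn2. Cluster 8 (led by Prl8a9, Crct1 and Camk1d) had the lowest level of 8 of the 10 genes, with Tead1 at 67.0 and Ccn1 at 39.4 CPM, but its cells were shallow, with a median of 3303 UMIs. Of its 472 cells, 373 carried no tag. The small cluster 12 (85 cells, led by Zfp804a, Gm12153 and Gm12381) had Tead1 at 1180 CPM, and 9 of the 10 genes had their highest cluster level there. Its cells were also shallow, with a median of 4241 UMIs, and its Ajuba level rested on 8 UMIs.

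**Figure D4:**
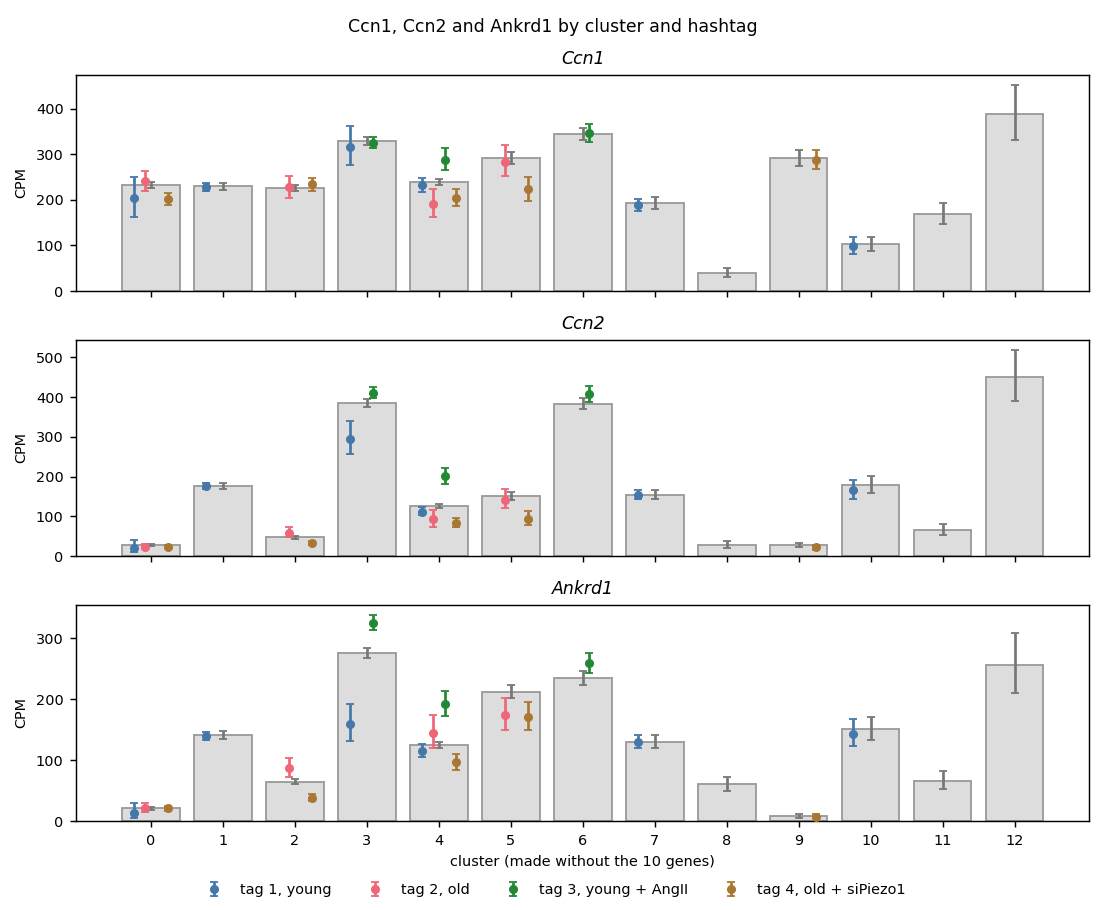
Level of Ccn1, Ccn2 and Ankrd1 in CPM by cluster: grey bars are all cells of a cluster, coloured points are the cells of 1 tag where at least 50 were present, and error bars are exact Poisson 95% intervals. Ccn2 and Ankrd1 are low in clusters 0 and 9 and high in clusters 3 and 6, whereas Ccn1 in clusters 0 and 9 is at 233 and 292.

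Within clusters the differences between tags varied from cluster to cluster. In cluster 0 the 3 tags with at least 50 cells had 13.9, 21.6 and 21.1 CPM of Ankrd1 (tags 1, 2 and 4) and 20.8, 23.7 and 23.9 of Ccn2, with overlapping intervals. In cluster 2 (led by Hist1h1b, Mki67 and Kif23, with all 8 markers of dividing cells above the rest) Ankrd1 was at 87.5 CPM in old cells and 38.6 in cells labelled siPiezo1, and Ccn2 at 59.4 and 33.0, which did not overlap. In the VSMC-like cluster 5 Ankrd1 was at 175 and 171 CPM in these tags, and Ccn2 at 142 and 94.7. The ratio of tag 4 over tag 2 within the 4 clusters that held both (0, 2, 4 and 5) ran from 0.441 to 0.980 for Ankrd1 and from 0.555 to 1.01 for Ccn2. Of the cells of cluster 4, 83.7% were called doublets. For AngII only that cluster and cluster 3, with 75 young cells, held both tags. The ratio to young cells was 1.67 to 2.04 for Ankrd1, 1.39 to 1.79 for Ccn2 and 1.03 to 1.24 for Ccn1. For age only clusters 0 and 4 held both tags, and the young cells of cluster 0 numbered 50. There Ccn2 stood at 1.14 in cluster 0 and 0.828 in cluster 4 in old over young cells, against 0.453 over all cells. Ankrd1 stood at 1.56 and 1.26, on the other side of 1 from its 0.808 over all cells, with overlapping intervals of the levels in each cluster.

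Across single cells the 10 genes were weakly tied to Piezo1. The mean over the 4 tags of the Pearson correlation of log levels in thinned cells (2397, 476, 1364 and 1415 cells) ran from -0.01 for Ankrd1 to 0.07 for Lats2, with 0.06 for Yap1, 0.05 for Wwtr1 and 0.03 for Ccn1 and Ccn2. The highest means rested on the small tag 2, with 0.17 for Lats2 and 0.14 for Yap1 there and 0.01 for each in tag 1. At such values in sparse counts from 1 library, no relation is read from them. Among the 10 genes the highest pairs all held Ccn2, with 0.17 for Ccn2 and Ankrd1 (0.09 to 0.27 in single tags), 0.15 for Ccn1 and Ccn2 and 0.13 for Amotl2 and Ccn2. Other pairs of targets were lower, such as Ccn1 and Ankrd1 at 0.06 and Ankrd1 and Axl at 0.02, and Wwtr1 and Ankrd1 stood at -0.04.

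Of 3286 other genes of at least 50 CPM, those whose levels over cells were most like those of Ccn2 included the collagen crosslinking gene Lox (mean r 0.27), Akap12 (0.25), Csf1 (0.25) and Cryab (0.24). Those most like Ankrd1 included Cryab (0.21), the smooth muscle genes Tagln (0.18) and Acta2 (0.18) and also Ccn2 (0.17). Tagln (0.24) and Acta2 (0.23) also went with Ccn2, at a higher mean r than with Ankrd1. Those most like Ccn1 were the cytoplasmic actin gene Actg1 (0.17), Lpp (0.16), Crim1 (0.16), Ccn2 (0.15) and Col5a2 (0.15). Cryab was on the lists of both Ccn2 and Ankrd1.

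Ccn1 and Ccn2 are also early-response genes that handling can induce, so the immediate early genes were read beside them. Fos had 105, 49.5, 38.3 and 68.0 CPM in tags 1 to 4. It was lowest in tag 3, where Ccn2 and Ankrd1 were highest, while in old over young cells Fos (0.47) and Ccn2 (0.453) were both lower. Egr1 had 147, 147, 115 and 195 CPM and Atf3 4.35, 3.59, 1.27 and 4.84 CPM. Over the 9 measured of 12 immediate early genes, 2 were at 1/1.5-fold or less and 1 at 1.5-fold or more in old over young cells, against 9.83% and 8.34% of all genes. With AngII 5 were at 1/1.5-fold or less and 0 at 1.5-fold or more, against 7.59% and 6.9%. In tag 4 over tag 2 none was past either limit, but all 9 lay above 1, from 1.04 to 1.38. The medians of the 9 log2 ratios were -0.09, -0.81 and 0.23 in the 3 comparisons, against 0.03, 0.04 and 0.02 over all genes. The mean correlation of Fos with Ccn1, Ccn2 and Ankrd1 across cells was 0.01, 0.00 and -0.02.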

How the data were processed

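One library of mouse VSMCs was measured by droplet single-cell sequencing with hashtags. The authors deposited raw UMI counts, made with Cell Ranger 4 and later handled in Seurat, for every barcode. Genome build: not given in the sources used here. Coordinates come from GENCODE vM21 (GRCm38) by gene identifier. Cells were barcodes with at least 200 genes and a UMI total no lower than the 99th percentile among the 10000 deepest, divided by 10. A cell had tag n when only that hashtag exceeded its cutoff of 36, 52, 61 or 41 UMIs (tags 1 to 4). The median UMIs of a cell's own hashtag were 364, 76, 113 and 67, so tags 2 and 4 lay nearest their cutoffs. CPM is the summed count of a tag's cells per 1000000, with a Poisson interval; ratios take theirs from the exact binomial of both counts, and shares from Clopper and Pearson. These intervals hold counting error alone. With cells as no replicates, neither a test nor a p-value was computed; 1.5-fold is a rule of size, used over genes of at least 10 CPM. The ratio and its interval were tested on simulated counts. Scrublet (scanpy 1.11.5) marked 3058 cells (23.4%) as doublets, which were kept. Clusters came from Seurat 5.3.0 in R 4.3.3 (2000 variable genes less the 10 studied, 30 components, 20 neighbours, resolution 0.8). Depth was 5577355 to 24120561 UMIs per tag.

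The 10 genes and the gene lists were chosen with earlier results of these data known. Genes named are the 10; Piezo1; in the Hippo and signature lists those past 1.5-fold, at most 4 per list and comparison; the 5 most like Ccn1, Ccn2 and Ankrd1, less an item that is not reported here; Fos, Egr1 and Atf3; and the 3 leading genes of a cluster described. VSMC markers were named after their values were seen. Protein sequences were not used here.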

Additional observations from a re-analysis of the deposited data

How the results depend on the processing

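Each ratio of the 10 genes was recomputed under 17 other ways of processing, or 16 for Ajuba. Of these ways, the limit of at least 50 CPM per gene kept the reported ratios and could only drop genes, so it cannot show stability. The limit of 10% mitochondrial UMIs gave the reported ratios again for tag 2 over tag 1 and for tag 3 over tag 1. Ratios of other genes were not recomputed. Of the 17 ways, 13 were planned and 4 were chosen after seeing the data. Those 4 were HTODemux at the 0.99 quantile, leaving out clusters 4 and 8 or cluster 9, and the free RNA share with doublets kept. Of the recomputed ratios, 451 stayed within the counting interval of the reported value and 56 moved outside it, and none that was past 1.5-fold changed direction. The 451 include the ratios that the limits on CPM and on mitochondrial UMIs left unchanged. The median log2 ratio for AngII rose from 0.22 to 0.32 without Scrublet doublets and to 0.31 when every cell had equal weight. Among only the cells with a Y-linked transcript and without Xist, the median for tag 4 over tag 2 was -0.23. There 1 gene of the 10 (Ajuba) was at 1.5-fold or more and 1 (Ccn2) at 1/1.5-fold or less, against 6.52% and 5.66% of all genes tested. Ankrd1 stood at 0.768, and only 97 and 211 cells of tags 2 and 4 remained. Without cluster 9, 1 gene (Ankrd1) was at 1/1.5-fold or less in that comparison, against 0.615% of all genes tested. When mitochondrial, ribosomal protein and the 20 most abundant genes were left out of the total, 1 gene (Ccn2) was at 1/1.5-fold or less in old over young cells. The share of all genes tested was 8.74% there. The cause of these moves was not tested. The free RNA share was 5.65% from cells not called doublets and 25.9% with doublets kept. At the latter Ccn2 in tag 4 was listed at 0, although that share was more than the Ankrd1 level of cluster 9 allows. The lowest Ccn2 ratio in old over young cells, 0.195, also came from it. No scaling moved the median of all genes by over 0.1 on the log2 scale. Correlations with Piezo1 moved by more than their spread over tags in 4 recomputations, all without thinning, and not in the other 16, and the highest became 0.09. No paired analysis was possible because each group was 1 culture.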

Other observations

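The cells that carried no tag made up 40.7% of the library. They entered no comparison between tags above, but they counted in the levels and shares of whole clusters. In them Ccn2 stood at 127 CPM, Ankrd1 at 94.1 and Ccn1 at 263. Ccn2 and Ankrd1 thus lay between the levels of the young and AngII-treated cultures on one side and the cells labelled siPiezo1 on the other. Amotl2 was at 78.4 CPM and Axl at 147, near the levels of the old cultures, and Wwtr1 at 111 CPM was near them too. Yap1 was at 55.0 CPM and Tead1 at 363. The donors of these cells are not known, and their depth (median 6968 UMIs) was below that of tags 2 to 4. Cells with more than 1 tag, of which 59.7% were called doublets, had Ccn2 at 160 CPM, Ankrd1 at 166 and Yap1 at 53.5.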
